A study of Mus musculus with 16 samples.

Results

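The protein synthesis machinery of mouse quadriceps muscle is described here through 9 genes of translation elongation and of the control of cap binding: Eef1a1, Eef1a2, Eef2, Eef2k, Eif4e, Eif4ebp1, Eif4ebp2, Eif4g1 and Rps6kb1. They were matched by symbol in a table of 45706 genes and selected on their estimated counts in knockout and wild-type muscle, whose comparison was known. All 9 of 9 were found there and passed the filter on low counts, which kept 13792 genes. Polyadenylated RNA was sequenced in 16 libraries. In 8 of them (KO) Nampt, the gene of the enzyme that makes the NAD precursor nicotinamide mononucleotide, was knocked out in skeletal muscle only. The other 8 (WT) came from wild-type animals. The driver of the deletion, the age and sex of the animals and whether each library came from its own animal are not named by the labels, so p-values measure the spread between libraries, which may in part be technical.

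A ribosome lengthens a protein in a cycle that needs a pair of GTPases. Elongation factor 1A brings each aminoacyl-tRNA to the ribosome, and elongation factor 2 (eEF2) then moves the ribosome along the mRNA. Muscle fibres switch after birth from the widely expressed form of factor 1A, encoded by Eef1a1, to the form encoded by Eef1a2, which adult muscle shares with heart and neurons. The calmodulin-dependent kinase encoded by Eef2k phosphorylates eEF2 and slows elongation, and it is itself restrained through mTORC1 and the S6 kinase encoded by Rps6kb1. Initiation depends on eIF4E, which binds the cap of the mRNA, and on eIF4G, the scaffold encoded by Eif4g1. The repressors encoded by Eif4ebp1 and Eif4ebp2 occupy eIF4E until mTORC1 phosphorylates them. Much of this control acts on proteins, which RNA levels do not show.

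Total estimated counts ran from 16065357 to 51881239 per library, and the RNA integrity number (RIN) from 8.2 to 8.8. Nampt, the check of the labels, stood at 60.4 to 88.7 CPM (counts scaled to a common library total) in KO libraries and at 126 to 161 CPM in WT libraries. No KO library reached the lowest WT value, though Nampt RNA remained in each (log2 fold change -0.95, SE 0.07, adjusted p = 9.68e-07 by edgeR's quasi-likelihood test). Markers of the muscle fibre summed to 171920 to 205680 CPM in KO and 179380 to 218250 CPM in WT, so the labelled tissue was matched by its defining genes. Markers of non-muscle cells were detected in both groups, with those of macrophages summing to 134 to 312 CPM in KO and 130 to 340 CPM in WT, and markers of fibro-adipogenic cells, the connective tissue progenitors of muscle, to 886 to 1985 CPM in KO and 909 to 1687 CPM in WT. Markers of endothelial cells summed to 363 to 423 CPM in KO and 326 to 384 CPM in WT. Those of pericytes and smooth muscle summed to 371 to 438 and 356 to 398 CPM. Of these markers 0 were called, though 8 of 10 and 7 of 7 had log2 fold changes above 0. At an unadjusted p under 0.05 in edgeR, 3 endothelial and 4 pericyte and smooth muscle markers passed, all higher in KO. Of all tested genes, 9.57% passed in either direction. The part of these cells in the differences between KO and WT was not tested. None of the 9 macrophage and 9 fibro-adipogenic markers was at 0. KO libraries 1, 3, 5 and 8 stood apart by their share of RNA without a poly(A) tail, 0.0528% to 0.0736% of counts against 0.0254% to 0.0458% in the other 12 libraries. In bulk RNA, fewer cells of a type and less RNA per cell cannot be told apart.

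The 9 genes covered a wide span of abundance, which was compared per kilobase of exon (CPM per kb, mean ± SD over all 16 libraries). Eef1a2, the muscle form of factor 1A, was the most abundant at 713 ± 46.0 CPM per kb and ranked 53rd of 13726 genes with a length. Eef2 followed at 402 ± 32.3 CPM per kb. Eef1a1 stood at 126 ± 18.9 CPM per kb and Eif4g1 at 107 ± 5.88 CPM per kb, a gap of less than 1 SD of Eef1a1 but more than 1 SD of Eif4g1. Over the other lengths given below, the gap exceeded 1 SD of Eef1a1. That SD was 26.3 CPM per kb for the longest basic and 54.9 for the median coding transcript. The other 5 genes formed a lower tier. Eif4ebp2 stood at 16.4 ± 1.08 CPM per kb. Eif4e (11.8 ± 0.988), Eif4ebp1 (11.5 ± 1.61) and Eef2k (11.3 ± 0.825 CPM per kb) did not differ beyond their spread on this length, although they did over the median coding transcript, given below. Rps6kb1 was the least abundant at 4.22 ± 0.268 CPM per kb and ranked 4881st. Eef1a2, Eef2, Eef1a1 and Eif4g1 stood above these 5 in each library of both genotypes on this scale. Length is the exon union of each gene, which counts rarely used exons: over the longest basic coding transcript instead, Eef1a1 came to 174, Eif4g1 to 138, Eif4e to 14.2, Eef2k to 12.7 and Rps6kb1 to 6.60 CPM per kb. The median coding transcript is shorter for several genes (672 bases for Eef2k and 856 for Eif4e, against 7408 and 6008 bases of exon union) and moved them most. Over that length Eef2k came to 124 ± 9.09, Eif4e to 82.6 ± 6.93, Eif4ebp1 to 12.6 ± 1.77 and Rps6kb1 to 11.2 ± 0.714 CPM per kb, so the order among the 5 lower genes depends on the length used. Eif4g1 came to 273 and Eef1a1 to 364 CPM per kb, still above all 5.

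**Figure D1:**
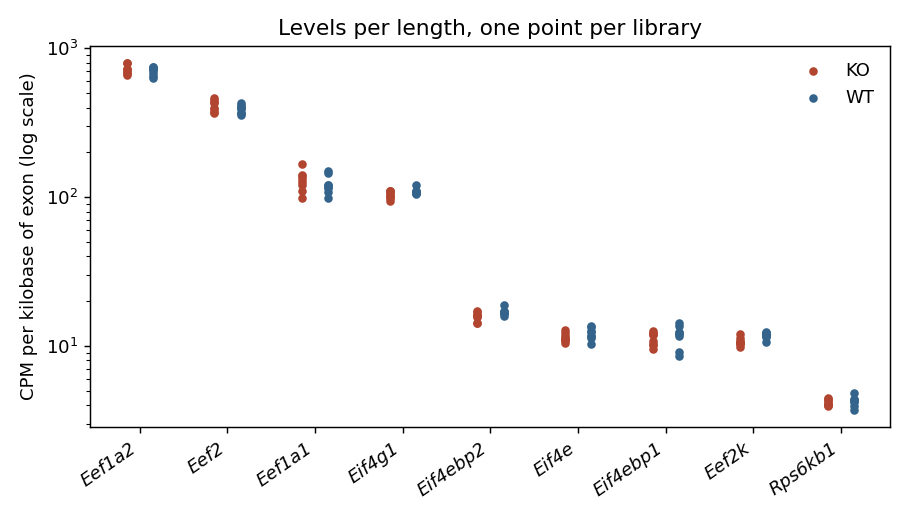
Level of each gene in CPM per kilobase of exon on a log axis, one point per library (8 KO, 8 WT), with genes ordered by their mean from left to right. Eef1a2, at 713 CPM per kb, comes first and Rps6kb1, at 4.22, last, and the points of both genotypes overlap for every gene.

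Within each family 1 form prevailed. Per kilobase, Eef1a2 exceeded Eef1a1 by a factor of 5.80 ± 0.947 (SD, n = 16), from 4.50 in WT library 3 to 7.33 in WT library 8. The factor was 5.72 ± 0.998 in KO and 5.89 ± 0.954 in WT, a difference far within the spread between libraries. With other gene lengths the factor was 4.17 (longest basic coding transcript) or 2.00 (median coding transcript), so its size, though not its direction, depends on the length used. Eif4ebp2 exceeded Eif4ebp1 by a factor of 1.46 ± 0.231, from 1.16 to 1.98 across libraries. The factor was 2.12 over the median coding transcript. Over the longest basic coding transcript it was 1.32 ± 0.210, with a lowest library of 1.05, so the 2 forms were then nearly level in that library.

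Among the elongation GTPases, KO and WT levels overlapped throughout. Eef1a1 (chromosome 9, 78478449 to 78489151 of GRCm38, minus strand) ran from 247.8 CPM through a median of 321.8 to 418.1 CPM in KO and from 245.5 through 296.3 to 372.9 CPM in WT. Eef1a1 was highest in KO library 4 and lowest in WT library 8. Its log2 fold change, KO against WT, was 0.08 (SE 0.10, 95% interval -0.12 to 0.29), and leaving out KO library 4 brought it to 0.02. Eef1a2 (chromosome 2, 181147653 to 181157014, minus strand) ran from 1387 through 1498 to 1653 CPM in KO and from 1315 through 1499 to 1572 CPM in WT. The 2 Eef1a2 medians nearly coincided, and the log2 fold change was 0.04 (SE 0.05, interval -0.06 to 0.14). Eef2 (chromosome 10, 81176631 to 81182498, plus strand) ran from 1219 through 1373 to 1549 CPM in KO and from 1190 through 1311 to 1432 CPM in WT. KO libraries 7 and 1 held the 2 highest Eef2 values. The Eef2 log2 fold change was 0.08 (SE 0.06, interval -0.04 to 0.19).

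Eef2k, which encodes the kinase of eEF2, had the lowest KO level relative to WT of the 9 genes. On chromosome 7 (120842831 to 120907450, plus strand), it stood at 89.5, 77.2, 80.6, 78.9, 76.5, 73.0, 77.1 and 83.6 CPM in KO libraries 1 to 8. In WT libraries 1 to 8 it stood at 87.2, 89.0, 86.6, 85.8, 91.2, 90.3, 78.8 and 91.8 CPM. The groups met through KO library 1, the only KO value above the WT mean, and WT library 7, the lowest WT value. Of the 8 KO libraries, 4 lay below the whole WT range. The means were 79.6 ± 5.06 CPM in KO and 87.6 ± 4.17 CPM in WT (SD, n = 8 each). The KO level was 90.9% of WT (95% interval 85.4% to 96.7%), a log2 fold change of -0.14 (SE 0.04, interval -0.23 to -0.05). The 4 KO libraries with more RNA lacking a poly(A) tail include the 2 highest Eef2k values of their group, and without those 4 the log2 fold change was -0.19. Markers of slow fibres summed to 566 to 993 CPM in KO and 267 to 1024 CPM in WT, with 10 of 10 log2 fold changes above 0 (median 0.30) and 0 called, and their part in the Eef2k difference was not tested. An antisense gene shares 101 exon bases with Eef2k, and since the strand setting of the counting is not given, their reads cannot be told apart there.

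The cap-binding genes gave small differences of the same kind. Eif4e (chromosome 3, 138526179 to 138559696, plus strand) ran from 62.6 through 67.8 to 76.7 CPM in KO and from 61.7 through 72.4 to 82.1 CPM in WT, with a log2 fold change of -0.09 (SE 0.06, interval -0.20 to 0.03). Eif4g1 (chromosome 16, 20668313 to 20692884, plus strand) ran from 687.9 through 763.7 to 808.7 CPM in KO and from 768.5 through 786.0 to 882.9 CPM in WT. For Eif4g1, 4 KO libraries lay below the WT range and WT library 8 stood far above all others. Its log2 fold change was -0.07 (SE 0.04, interval -0.15 to 0.02), and -0.04 without WT library 8.

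Of the 2 eIF4E repressors, Eif4ebp2 showed the larger separation. Eif4ebp2 (chromosome 10, 61428491 to 61452661, minus strand) stood at 97.2, 83.0, 94.2, 82.5, 92.5, 93.5, 98.7 and 90.7 CPM in KO libraries 1 to 8 and at 96.8, 91.7, 97.3, 96.6, 96.5, 99.3, 98.0 and 108.8 CPM in WT libraries 1 to 8. KO libraries 2, 4 and 8 lay below the lowest WT value, while WT library 8 was the highest of all 16. The Eif4ebp2 log2 fold change was -0.10 (SE 0.04, interval -0.19 to -0.01), a KO level of 93.3% of WT. Eif4ebp1 (chromosome 8, 27260329 to 27276674, plus strand) ran from 21.0 through 24.9 to 27.9 CPM in KO and from 18.7 through 26.7 to 31.5 CPM in WT. The WT libraries held both the highest and the lowest Eif4ebp1 value, and the log2 fold change was -0.06 (SE 0.10, interval -0.26 to 0.15). Rps6kb1 (chromosome 11, 86498871 to 86544805, minus strand) ran from 34.0 through 35.6 to 38.8 CPM in KO and from 32.3 through 37.2 to 42.0 CPM in WT, with all KO values inside the WT range and a log2 fold change of -0.03 (SE 0.05, interval -0.13 to 0.07). Without WT library 2, the highest for Rps6kb1, that value was 0.00. The end of Rps6kb1 overlaps the exons of Rnft1 on the opposite strand over 155 bases, where reads likewise cannot be told apart.

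**Figure D2:**
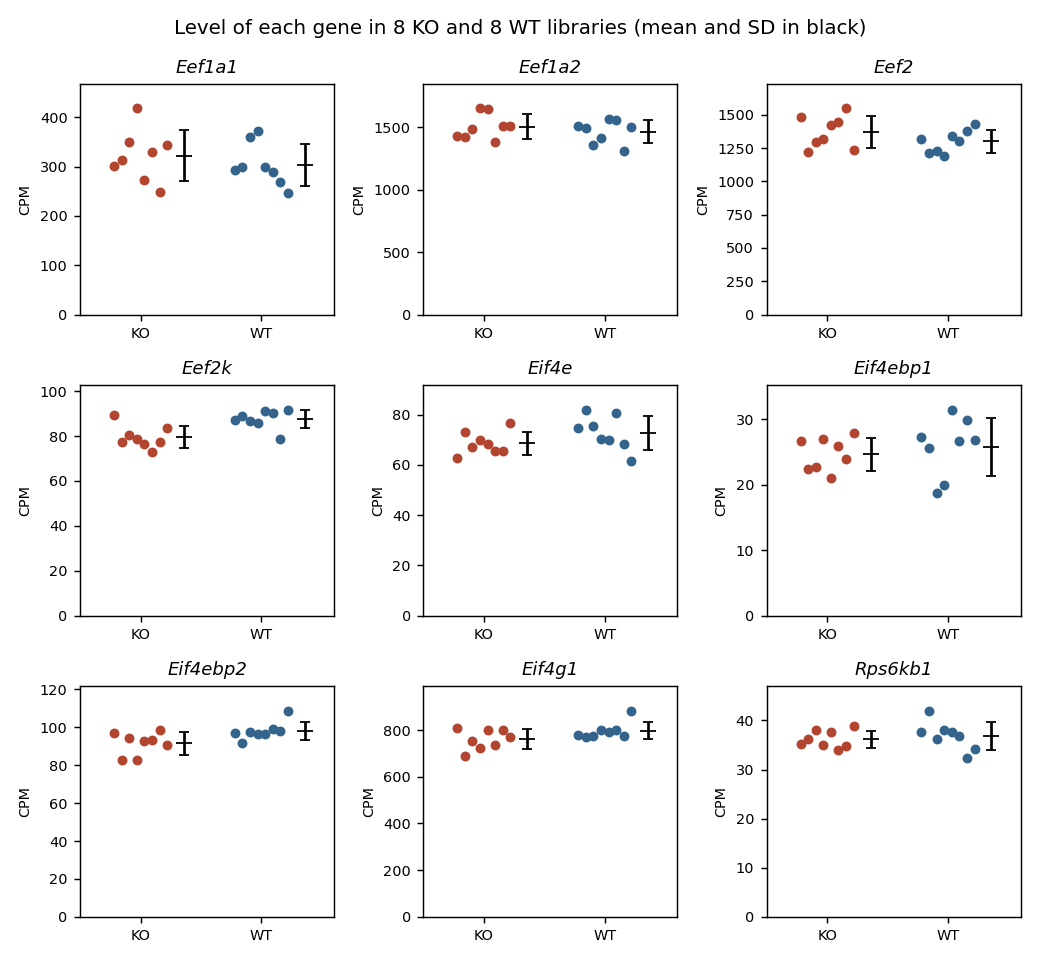
Level of each gene in CPM in every library, with 1 panel per gene, points for the 8 KO and 8 WT libraries and, in black, each group's mean and SD. The 2 groups overlap in all 9 panels, and for Eef2k 4 of the 8 KO points lie below every WT point.

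Across the 9 genes, 0 were called by edgeR's quasi-likelihood test at an adjusted p under 0.05, where 0.0435% of all tested genes (6 of 13792) were called, and 0 were called by DESeq2 or limma-voom. At an unadjusted p under 0.05, 2 of 9 passed in edgeR, Eef2k and Eif4ebp2, both lower in KO, beside 9.57% of all tested genes (1320). Since the genes were chosen with this comparison known, nothing is read from these counts. The intervals bound how large any difference may be. For 9 of 9 genes the 95% interval of the difference stayed below a 1.5-fold change both ways, as it did for 11884 of 13792 tested genes (86.2%). The median log2 fold change of the 9 was -0.06, beside 0.00 over all tested genes.

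The rest of the pathway was read from 5 lists of 101 genes, of which 99 were tested. Again 0 of 99 were called by edgeR's quasi-likelihood test, with a lowest adjusted p of 0.338, and 0 by DESeq2, which gave no adjusted p for 7 of them, or by limma-voom. At an unadjusted p under 0.05, 14 of 99 (14.1%) passed, 3 higher and 11 lower in KO, beside the 9.57% of all tested genes. That 9.57% covers both directions, and its split was not counted. Nothing is therefore read from the direction here or in the single lists that follow. The median log2 fold change of the 99 was -0.01, beside 0.00 over all tested genes. Among other elongation factors and their modifying enzymes, 8 of 23 had a log2 fold change above 0, and 1 higher and 3 lower passed at an unadjusted p under 0.05. The 2 most abundant were Tpt1, a translationally controlled protein that binds factor 1A, with a KO mean of 1204 ± 65.9 CPM and a WT mean of 1268 ± 94.9 CPM (SD, n = 8), and Eef1g, a subunit of the exchange factor that reloads 1A with GTP, at 303.6 ± 8.08 and 327.4 ± 19.9 CPM. Among other eIF4F and poly(A)-binding regulators, 10 of 20 were above 0, and 2, both lower, passed unadjusted. Eif4g2, a scaffold related to Eif4g1 that does not bind eIF4E, averaged 602.3 ± 33.6 CPM in KO libraries and 639.0 ± 32.8 CPM in WT libraries, and Pabpc4, a poly(A)-binding protein, 301.3 ± 29.3 and 336.2 ± 35.6 CPM.

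Signalling genes, other initiation factors and termination factors gave counts of the same kind. Of 23 kinases, phosphatases and S6 kinase substrates, 10 were above 0, with a median log2 fold change of -0.02, and 1 higher and 3 lower passed unadjusted. Calm3, a gene for the calcium sensor that activates the kinase of eEF2, stood at 317.0 ± 30.5 CPM in KO against 356.4 ± 33.1 CPM in WT. Among 27 other initiation factors, 14 were above 0 and 1, lower in KO, passed unadjusted. Eif1, which guards start codon choice, averaged 401.1 ± 39.1 CPM in KO libraries and 411.8 ± 37.3 CPM in WT libraries, and Eif3a, the large subunit of eIF3, 174.3 ± 7.94 and 173.6 ± 8.07 CPM. Of 6 termination and recycling factors 3 were above 0, and 1 higher and 2 lower passed unadjusted. The most abundant were Etf1, the release factor that reads stop codons, averaging 108.4 ± 6.92 and 112.1 ± 3.98 CPM in KO and WT, and Hbs1l, which rescues stalled ribosomes, at 67.3 ± 3.73 and 71.3 ± 3.09 CPM.

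**Figure D3:**
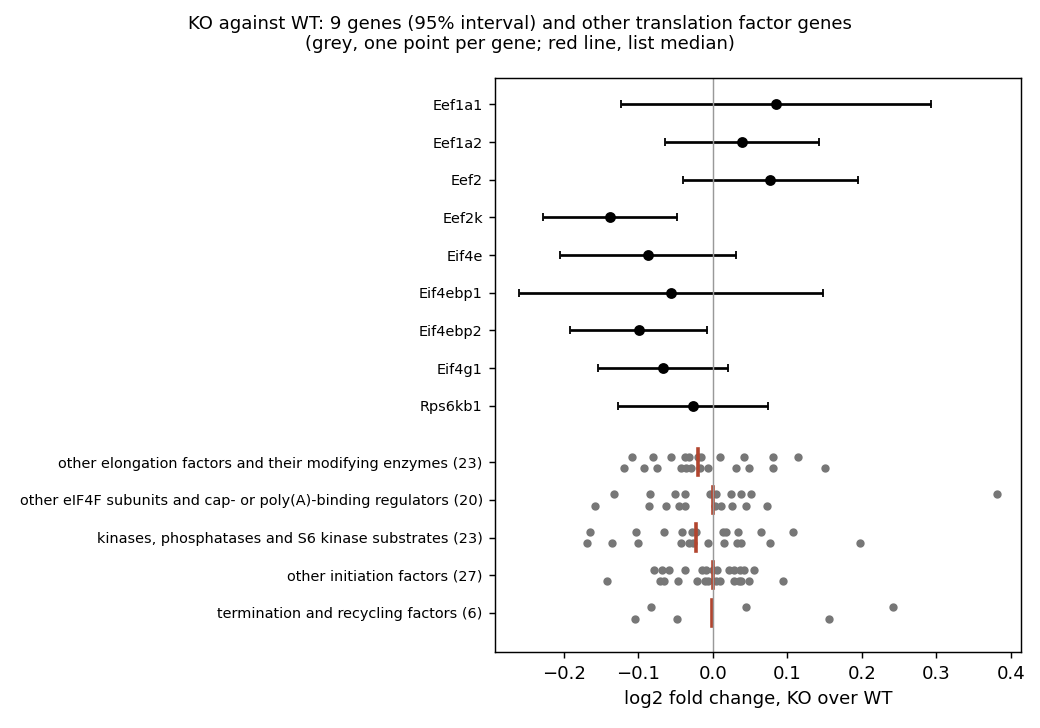
Log2 fold change, KO against WT, as a description: black points with 95% intervals for each of the 9 genes, grey points for the 99 genes of the 5 pathway lists with red lines at the list medians, and a vertical line at 0. Eef2k lies lowest of the 9 at -0.14, every interval of the 9 stays within a 1.5-fold change, and the list medians lie between -0.02 and 0.00.

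The genes differed in how much they varied between libraries of 1 genotype. The SD of log2 CPM within genotype was 0.22 for Eef1a1 and 0.21 for Eif4ebp1, beside medians of 0.11 and 0.10 for the 500 genes nearest to each in level. At the other end stood Eif4g1 at 0.07, lower than all but 15.3% of its neighbours. Eef2k (0.08), Eif4ebp2 (0.08), Rps6kb1 (0.09), Eef1a2 (0.09), Eef2 (0.11) and Eif4e (0.11) lay between. The 2 forms of factor 1A thus differed in spread as well as in level, since 86.8% of neighbours had a lower SD than Eef1a1 and 32.4% had a lower SD than Eef1a2.

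For 4 of the genes that varied together between libraries, as described next, the start site is shown by the 250 bases before each RefSeq start (GRCm38.p6), read 5′ to 3′ on the strand of the gene. Capitals mark 3 motifs searched on both strands: a TATA box (TATAAA), a GC box (GGGCGG, or CCGCCC on the other strand) and an E-box (CACGTG). Of the 9 genes 8 had an entry, and 4 are printed, the 2 GTPase genes Eef1a1 and Eef2 and the pair Eif4ebp2 and Eif4g1. Their windows are chr9:78481725-78481974 on the minus strand, chr10:81176381-81176630 on the plus strand, chr10:61452670-61452919 on the minus strand and chr16:20672477-20672726 on the plus strand.
Eef1a1: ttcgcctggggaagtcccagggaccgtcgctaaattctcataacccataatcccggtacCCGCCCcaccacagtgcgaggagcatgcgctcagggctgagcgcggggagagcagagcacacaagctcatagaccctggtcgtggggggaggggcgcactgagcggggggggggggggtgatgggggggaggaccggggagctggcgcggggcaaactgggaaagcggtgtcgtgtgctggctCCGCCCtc
Eef2: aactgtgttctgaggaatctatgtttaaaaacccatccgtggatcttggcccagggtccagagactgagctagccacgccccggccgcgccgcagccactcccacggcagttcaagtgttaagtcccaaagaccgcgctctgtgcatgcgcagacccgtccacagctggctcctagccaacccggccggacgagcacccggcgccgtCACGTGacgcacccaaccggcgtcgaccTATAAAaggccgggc
Eif4ebp2: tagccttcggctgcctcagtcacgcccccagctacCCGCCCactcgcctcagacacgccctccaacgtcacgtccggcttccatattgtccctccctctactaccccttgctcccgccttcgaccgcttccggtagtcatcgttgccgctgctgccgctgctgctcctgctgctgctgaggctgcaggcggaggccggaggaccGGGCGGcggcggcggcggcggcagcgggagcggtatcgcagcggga
Eif4g1: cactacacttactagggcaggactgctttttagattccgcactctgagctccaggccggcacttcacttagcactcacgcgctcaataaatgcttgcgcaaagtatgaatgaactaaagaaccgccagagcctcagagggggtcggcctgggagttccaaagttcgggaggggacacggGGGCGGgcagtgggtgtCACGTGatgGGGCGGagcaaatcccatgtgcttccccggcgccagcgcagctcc
In the Eef2 window the E-box begins 43 bases and the TATA box 15 bases before the start. Eif4g1 has an E-box 54 bases before the start, between GC boxes at 71 and 45 bases. Eif4ebp2 has GC boxes at 215 and 46 bases and Eef1a1 at 191 and 8 bases, and neither window holds the other 2 motifs. Eif4e, which also varied with these genes, has 2 RefSeq starts and is not printed because the counts do not tell them apart: 1 window holds none of the motifs and the other E-boxes at 228 and 64 bases. The printed Eef1a1 and Eif4g1 windows lie inside the gene spans given above, which reach further upstream. The counts do not tell RNA begun upstream of these windows from RNA begun at the RefSeq start either. Of 32851 mouse promoter windows of this length, 12.4% hold the TATA box, 32.7% the GC box and 6.02% the E-box. A match is a run of letters, not a measured binding site.

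Covariation was measured on log2(CPM + 0.5) after each genotype's mean was removed, so the difference between KO and WT played no part. Of 36 pairs among the 9 genes, 5 (13.9%) passed a permutation test within genotype (100000 resamples, two-sided, Benjamini-Hochberg over 36 pairs). Of all pairs of tested genes, 2.00% were as strongly correlated as the weakest of the 5. That share is by r alone, a level that Eif4e and Rps6kb1 (r = 0.66) also reached without being called. With all other tested genes the share was 8.35% for Eef2 and 4.13% for Eif4ebp2, each in 3 called pairs. Eef2 was in 3 of the 5. Eef2 varied with Eif4ebp2 (r = 0.73, rho = 0.71, permutation p = 0.00222, adjusted p = 0.0266) and against Eef1a1 (r = -0.72, rho = -0.70, permutation p = 0.00329, adjusted p = 0.0296). It also varied against Eif4e (r = -0.70, rho = -0.79, permutation p = 0.00167, adjusted p = 0.0266). Libraries with more RNA of the translocase thus had less RNA of the widely expressed factor 1A and of the cap-binding protein.

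The closest pair was Eif4ebp2 and Eif4g1, a repressor of eIF4E and the scaffold with which it competes (r = 0.86, rho = 0.71, permutation p = 0.00033, adjusted p = 0.0119). Eif4e and Eif4ebp2 varied inversely (r = -0.65, rho = -0.59, permutation p = 0.00493, adjusted p = 0.0355). Without the 2 libraries farthest from the median, r was 0.79 for Eif4ebp2 and Eif4g1, 0.61 for Eef2 and Eif4ebp2, -0.75 for Eef2 and Eef1a1 and -0.71 for Eef2 and Eif4e. For Eif4e and Eif4ebp2 it was -0.44 (permutation p = 0.137), so the call rests on WT libraries 2 and 8, although r was -0.64 within the 8 KO libraries alone. With Spearman's rho that pair was not called either (adjusted permutation p = 0.0958). The calls leaned on single libraries more widely. The number of pairs called was 0 without WT library 8, 1 without KO library 1, 1 without KO library 7, 2 without WT library 2 and 9 without KO library 2. The 4 relations other than that of Eif4ebp2 and Eif4g1 each lost their call without KO library 1, KO library 7 or WT library 8, and also without WT library 4 (Eef2 and Eef1a1) or WT library 2 (the other 3). With any 1 library left out, r ran from 0.80 to 0.90 for Eif4ebp2 and Eif4g1, from 0.67 to 0.79 for Eef2 and Eif4ebp2, from -0.81 to -0.64 for Eef2 and Eef1a1, from -0.78 to -0.64 for Eef2 and Eif4e and from -0.73 to -0.51 for Eif4e and Eif4ebp2. Eef2k, Eef1a2, Eif4ebp1 and Rps6kb1 were in no called pair. Rps6kb1 came closest, by adjusted p with Eef2 (r = -0.61, rho = -0.65, adjusted permutation p = 0.053). By r it came closest with Eif4e (r = 0.66, rho = 0.67, adjusted permutation p = 0.0597). Eef2 and Rps6kb1 were called with RLE scaling and without KO library 2, KO library 4, KO library 5 or WT library 3. Eef2k reached at most r = 0.44, with Eif4g1.

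**Figure D4:**
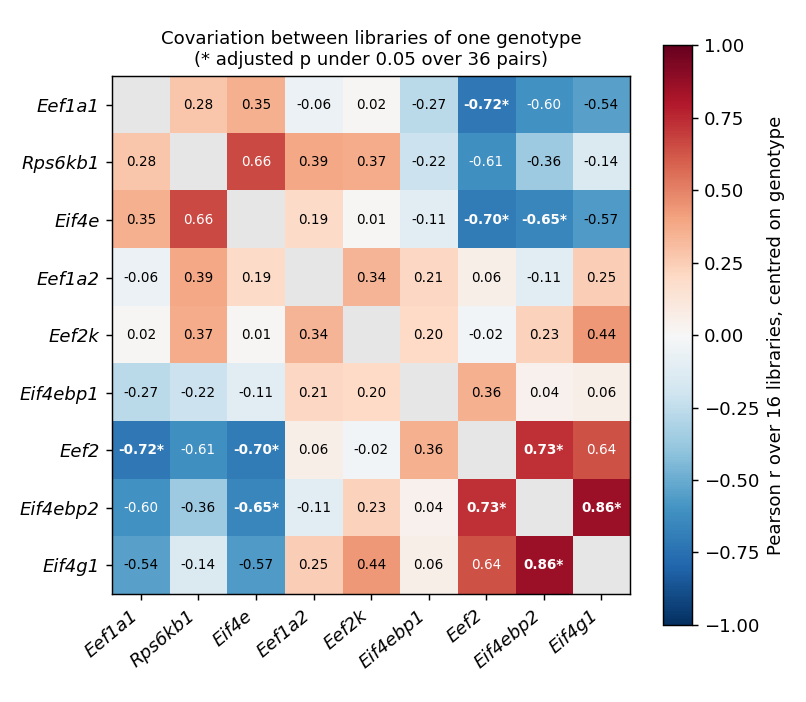
Pearson r of log2(CPM + 0.5), centred on the genotype mean, for the 36 pairs of the 9 genes over 16 libraries; colour and number give r from -1 to 1. Eif4ebp2 and Eif4g1 have the highest value, 0.86, and Eef2 and Eef1a1 the lowest, -0.72.

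Eef1a1 and Eef2 tracked the non-muscle markers of each library in opposite directions. Over 9 genes and 11 library measures, 8 of 99 relations (8.08%) passed the same test with adjustment over 99, where 1.45% of all relations of tested genes with these measures were as strong as the weakest of the 8. Eef1a1 varied with the mean level of 9 macrophage markers (r = 0.91, rho = 0.90, permutation p = 1e-05, the smallest that 100000 resamples give, adjusted p = 0.00099). The relation was alike in both genotypes, with r = 0.92 within KO and 0.92 within WT, and r was 0.89 without KO libraries 4 and 7. Every one of the 9 markers varied with Eef1a1, from r = 0.80 to 0.94. Eef1a1 also varied with the 9 fibro-adipogenic markers (r = 0.83, rho = 0.88, permutation p = 7e-05, adjusted p = 0.00231).

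Eef2 went the other way. It varied against the fibro-adipogenic markers (r = -0.89, rho = -0.83, permutation p = 7e-05, adjusted p = 0.00231), with r = -0.93 within KO and -0.81 within WT. Only 3 of 13792 tested genes (0.0218%) had a relation to that score as negative as or more negative than Eef2, counting Eef2. Eef2 also varied against the macrophage markers (r = -0.79, rho = -0.74, permutation p = 0.00041, adjusted p = 0.0101), a call that was lost without KO library 7 (adjusted p = 0.0552). Markers of endothelial cells moved the opposite way, with r = 0.73 for Eef2 (adjusted permutation p = 0.0303) and r = -0.79 for Eef1a1 (adjusted permutation p = 0.016). Both endothelial calls were lost with Spearman's rho (adjusted permutation p = 0.0612 for each), without KO library 7 and without WT library 4, and that of Eef2 also without KO library 8 or WT library 7, where r with any 1 library left out ran from 0.65 to 0.87 for Eef2 and from -0.83 to -0.72 for Eef1a1. The relations of Eef1a1 to macrophage and fibro-adipogenic markers and of Eef2 to fibro-adipogenic markers were called in each of the 20 alternatives run.

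Among the initiation genes, Eif4ebp2 varied against the fibro-adipogenic markers (r = -0.76, adjusted permutation p = 0.021), a call lost with Spearman's rho (-0.68, adjusted permutation p = 0.0999) and without KO library 7 or WT library 8, although r stayed between -0.83 and -0.70 with any 1 library left out. Eif4ebp1 varied against the mean of 76 cytosolic ribosomal protein genes (r = -0.73, adjusted permutation p = 0.0366), but r was -0.43 without WT libraries 3 and 4, so the call rests on those libraries, with r = -0.52 within KO and -0.83 within WT. It was also lost with Spearman's rho (adjusted permutation p = 0.0612) and without any of 9 of the 16 libraries, with r from -0.82 to -0.60. The share of RNA without a poly(A) tail gave r = 0.69 with Eif4g1 and r = 0.63 with Eef2k, neither past the threshold (adjusted permutation p = 0.0814 and 0.1). Eef2k also ran against the mean of 10 slow fibre markers without passing (r = -0.56, adjusted permutation p = 0.1), with r = -0.86 within KO and -0.46 within WT. After the fibro-adipogenic and macrophage scores were removed from every gene, r of Eef2 and Eef1a1 was 0.18 in place of -0.72, and r of Eef2 and Eif4ebp2 was 0.20 in place of 0.73. For the other called pairs it was -0.51 in place of -0.70 (Eef2 and Eif4e), -0.32 in place of -0.65 (Eif4e and Eif4ebp2) and 0.70 in place of 0.86 (Eif4ebp2 and Eif4g1). How far the makeup of each piece of muscle sets these levels was not tested.

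**Figure D5:**
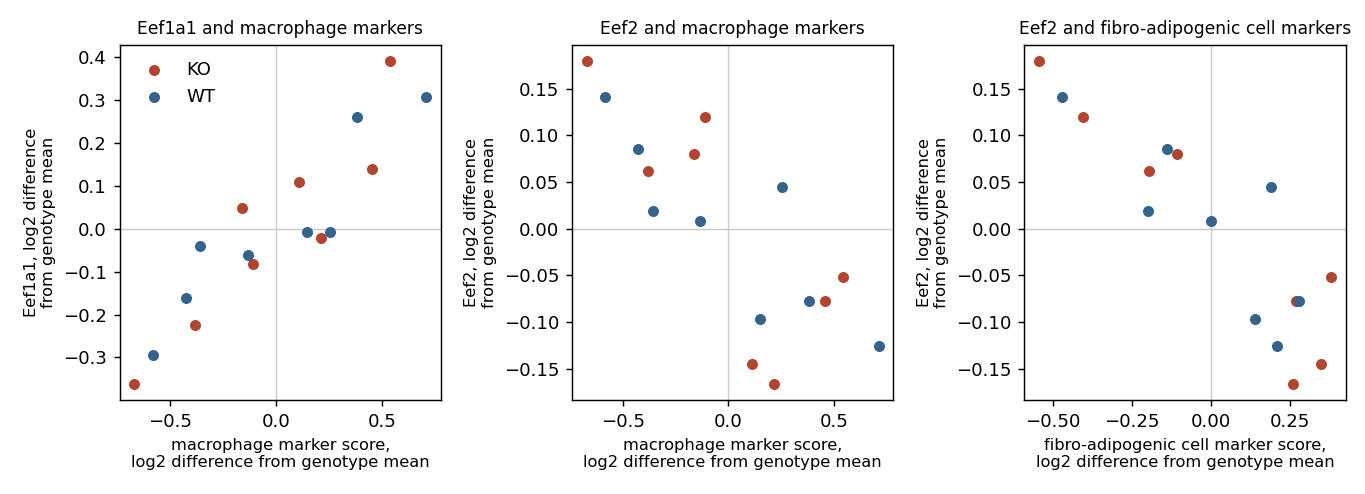
Level of Eef1a1 against the macrophage marker score, and of Eef2 against the macrophage and the fibro-adipogenic score, in 3 panels of 16 libraries, each axis the log2 difference from the genotype mean. Eef1a1 goes up with the macrophage score (r = 0.91) and Eef2 goes down with the fibro-adipogenic score (r = -0.89), in KO and WT alike.

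The genes most like each of the 9 across the 16 libraries were named by the same centred correlation, as a description. For Eef1a1 these were Lyz2 (r = 0.94), the lysozyme of myeloid cells and itself 1 of the macrophage markers, and Laptm5 (0.93), a lysosomal membrane protein of blood cells. For Eef2 they were Eif4b (0.94), a cofactor of the eIF4A helicase, and the phosphatase gene Ptp4a3 (0.92). Eif4g1 lay nearest to Sirt2 (0.93), an NAD-dependent deacetylase, and Klhl8 (0.92). Eif4ebp2 lay nearest to the spliceosome helicase gene Ddx23 (0.91) and to Stk11 (0.89), which encodes the kinase LKB1. For Eef2k they were Limd1 (0.90) and Kctd15 (0.87), for Eef1a2 Abcc9 (0.86), a subunit of ATP-sensitive potassium channels, and Rnf34 (0.85), and for Rps6kb1 Igsf3 (0.83). Eif4e lay nearest to BC031181 (0.87) and Nrep (0.84), and Eif4ebp1 to Mrpl16 (0.83), a subunit of the mitochondrial ribosome, and Dgat2 (0.78), an enzyme of triglyceride synthesis. The number of genes that moved with each also differed. Of the other tested genes, 8.35% reached an absolute r of 0.65 with Eef2 and 8.14% with Eef1a1, against 1.27% with Eef1a2 and 0.899% with Eif4ebp1.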

How the data were processed

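The submitters' processing notes name bcl2fastq 4.0.3, STAR, Salmon and the build GRCm38. They give no STAR or Salmon version, annotation or strand setting. The values deposited by the authors are estimated counts per gene without scaling for depth, of which 11.1% had a fractional part, and each was rounded. Samples were grouped by the labelled genotype. The 9 genes and the lists were chosen with earlier results of these data known.

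One test ran on the whole table with edgeR 4.0.16 in R 4.3.3 (TMM scaling, filterByExpr, quasi-likelihood test, Benjamini-Hochberg adjustment, calls at an adjusted p under 0.05), and was checked on simulated data. The genes it filtered out held 0.0706% of all counts. CPM values use the TMM library sizes. Gene lengths are unions of GENCODE vM21 exons. Correlations are Pearson r of genotype-centred log2(CPM + 0.5) with permutation within genotype. Besides the 9 genes and Nampt, the genes named are the 2 most abundant of each list, unless a member was called, and the 2 tested genes most correlated with each of the 9 (mean of at least 5 CPM, gene models left out); 2 genes that this rule names are not reported here. Alternatives were RLE and upper-quartile scaling, no filter, DESeq2 1.42.0, limma-voom (limma 3.58.1), 4 covariate or block fits, a pseudocount of 5, Spearman's rho, other lengths and left-out libraries. Libraries of 1 genotype differed by more than sampling noise (lowest chi-square per degree of freedom 8.09), so none was a copy or a second sequencing run of another. This does not tell whether each library came from its own animal.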

Additional observations from a re-analysis of the deposited data

Results flagged for a closer look

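Of 30 groups of 8 libraries examined, 4 held a library whose distance to its nearest neighbour exceeded Dixon's 95% critical value of 0.526 of the group's range; chance alone gives about 1 such group in 20. WT library 8 accounts for 3 of them. Its Eif4g1 level, 883 CPM, lay above the other WT libraries by 0.716 of their range, and its Eif4ebp2 level, 109 CPM, by 0.553. The same library had the lowest RIN of the WT group, 8.2, set apart by 0.6 of the range. Over all 16 libraries RIN gave r = -0.47 with Eif4g1 and r = -0.52 with Eif4ebp2, neither called (adjusted permutation p = 0.298 and 0.219). Within WT, r was -0.91 and -0.84. Without KO library 2 and WT library 8, r was -0.25 for Eif4g1. Without KO library 4 and WT library 8, it was -0.06 for Eif4ebp2. Whether RNA integrity set the levels of these genes in WT library 8 was not tested. Of the 9 genes, Eef1a1 had the r with RIN that was largest in size, 0.55 over all 16 libraries. It was not called (adjusted permutation p = 0.19). For Eef1a1, r was 0.46 within KO and 0.67 within WT, and 0.37 without KO libraries 4 and 7. The part of RNA integrity in the relations of Eef1a1 was not tested. WT library 7 held the lowest WT level of Eef2k, 78.8 CPM, set apart by 0.540 of the range.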

How the results depend on the processing

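The count of genes called over the whole table was 6. It was 2 with RLE scaling, 3 without the low-count filter, 96 with DESeq2, 2 with a covariate for RNA without a poly(A) tail, 15 with the fibro-adipogenic and macrophage scores as covariates (chosen after seeing the data), 2 without KO libraries 1, 3, 5 and 8, and 2 to 8 with any 1 library left out. With the replicate number as a block it was 2. Over the most variable genes, same-numbered libraries did not deviate together (r from -0.09 to 0.33, own number best for 2 of 8), so the numbers were not taken to pair libraries. For Eef1a1, however, the block lowered the SE of the log2 fold change from 0.10 to 0.06. The permutation tests treat same-numbered libraries as unrelated. In all 26 alternatives 0 of the 9 genes and 0 of the 99 pathway genes were called. Of the 9 log2 fold changes, 8 kept their sign in all 26 alternatives and Rps6kb1 in 25. The number of correlated pairs, 5, ran from 0 to 9 with any 1 library left out. The number of relations to library measures, 8, was 4 with Spearman's rho and ran from 4 to 9 with any 1 library left out. The ratio of Eef1a2 to Eef1a1 moved from 5.80 to 2.00 with median and 4.17 with longest basic coding transcripts. That of Eif4ebp2 to Eif4ebp1 moved from 1.46 to 2.12 with median ones and was 1.32 with longest basic ones. In both ratios only the gene length changes. The cause of the other moves was not tested. The lowest estimated count of any of the 9 genes in a library was 357 (Eif4ebp1, KO library 5).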
